A study of Mus musculus with 8 samples.

Results

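Transcripts of 10 genes for subunits of the Polycomb repressive complexes, Ezh2, Ezh1, Eed, Suz12, Jarid2, Mtf2, Phf19, Rnf2, Cbx7 and Bmi1, were followed in mouse embryonic stem cells (ESCs) under 4 culture conditions. The genes were chosen by name, and all 10 were found among the 20278 genes of the expression files and passed the filter on low counts. Across the 4 conditions the transcript levels of Ezh2, Eed, Suz12 and Rnf2 stayed close together, with the highest condition mean between 1.08 and 1.28 times the lowest. For Ezh1 it was 1.5 times the lowest. Phf19 and Bmi1 moved most, in opposite directions, with highest over lowest means of 5.85 for Phf19 and 3.74 for Bmi1. Jarid2 was lower and Mtf2 higher in conditions with 2i than in those without it. The means of both were higher in F than in −F and lower in NB2i than in F2i.

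Polycomb proteins keep developmental genes silent through histone modification. Polycomb repressive complex 2 (PRC2) methylates histone H3 through the catalytic subunit Ezh2 or its paralog Ezh1, which needs Eed and Suz12, and accessory subunits (Jarid2 and Aebp2, or the Polycomb-like proteins Phf1, Mtf2 and Phf19) help to bring the core to its targets. Polycomb repressive complex 1 (PRC1) ubiquitinates histone H2A through Rnf2 or Ring1 together with a Pcgf protein such as Bmi1, and canonical PRC1 reads the PRC2 mark through a chromobox protein, with Cbx7 the main one in ESCs.

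The cells were N33 ESCs, a male line labelled C57BL/6 and derived from C57BL/6J mice by the study's methods, so all values describe 1 line. The conditions were serum without feeders on gelatin (−F), serum on mitomycin C-treated mouse embryonic fibroblast feeders (F), serum on feeders with 2i (F2i), and N2B27 medium with 2i (NB2i), each with 2 samples called biological duplicates by the series. Serum medium held 20% fetal bovine serum and 1000 U/ml leukemia inhibitory factor (LIF). 2i is a pair of inhibitors, CHIR99021 against Gsk3β and PD0325901 against Mek, given in NB2i at 3 µM and 1 µM with 1000 U/ml LIF on poly-L-ornithine and laminin, without serum or feeders. The concentrations in F2i are not stated separately in the labels. NB2i therefore differed from −F in serum, basal medium and coating as well as in 2i, and these cannot be told apart. ESCs grown on feeders were parted from them by adherence before RNA extraction.

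Each library held between 20129641 and 20664488 expected counts, and the 10 genes had between 91 (Phf19 in NB2i replicate 2) and 12368 (Jarid2 in F replicate 2) in a sample. The 8 ESC markers summed to between 3670 and 4650 FPKM (read fragments scaled to transcript length and library size) in every sample. Dppa5a alone had condition means between 1846 and 2276 FPKM. For single markers the highest over the lowest condition mean ran from 1.21 (Sox2) to 4.49 (Klf4). The 12 fibroblast markers summed to 13.8 and 13.7 FPKM in −F, 258 and 268 in F, 685 and 674 in F2i, and 2.32 and 1.89 in NB2i, where 3 and 4 of the 12 were not listed (Dcn, Lum and Postn in both samples and Col3a1 in replicate 2). Fibroblast marker RNA was thus high in F and F2i, and the markers were near 0 in NB2i. From F to F2i 9 of the 12 rose, beside 27.3% of all genes. The other 3, Dcn, Lum and Twist2, did not pass the test (log2 0.15, 0.54 and −0.11, edgeR adjusted p = 0.45, 0.12 and 0.78). In bulk samples, fewer cells of a type and less RNA per cell cannot be told apart.

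**Figure D1:**
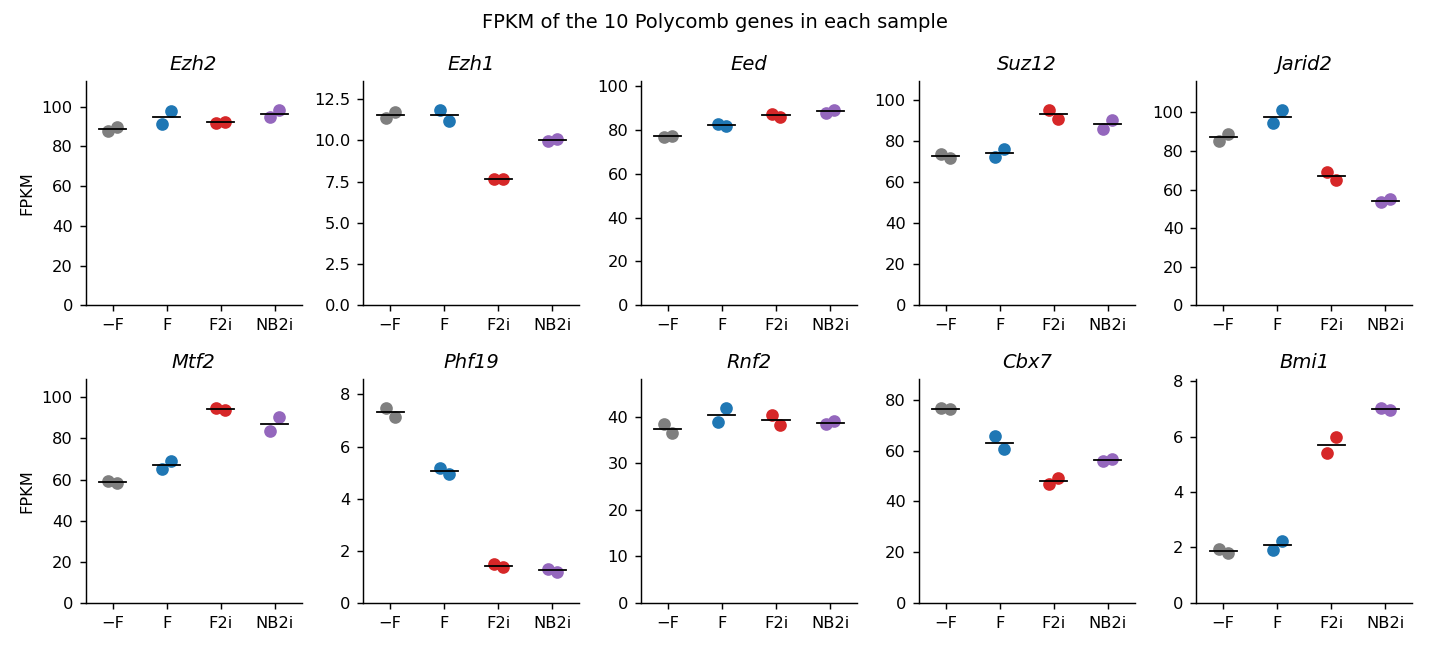
FPKM (vertical axis, from 0) of each of the 10 genes in the 4 conditions; points are the 2 samples of a condition and bars their mean. Ezh2, Eed and Rnf2 lie nearly level, Phf19 falls from 7.48 to 1.18 and Bmi1 rises from 1.81 to 7.03 between their extreme samples.

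Ezh2, the main methyltransferase of PRC2 in dividing cells (chr6:47530139-47595341, minus strand, mm10), was among the most abundant of the 10, at 87.82 and 89.70 FPKM in −F, 91.54 and 97.74 in F, 92.01 and 92.43 in F2i, and 94.78 and 98.22 in NB2i. The F samples spanned both F2i samples and overlapped NB2i, and the −F samples lay just below all others. Between F2i and F the log2 difference was 0.00 (SE 0.043, edgeR adjusted p = 0.99), whereas NB2i exceeded −F by 0.19 (SE 0.043, edgeR adjusted p = 0.00056).

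Ezh1, the paralog with weaker catalytic activity (chr11:101191115-101226463, minus strand), stood at 11.34 and 11.71 FPKM in −F, 11.82 and 11.19 in F, 7.67 and 7.68 in F2i, and 9.98 and 10.05 in NB2i. Both F2i samples were the lowest, both NB2i samples came next, and −F and F overlapped. Ezh1 was lower in F2i than in F (log2 −0.55, SE 0.06, edgeR adjusted p = 1.1e-07) and higher in NB2i than in F2i (log2 0.39, SE 0.061, edgeR adjusted p = 1.1e-05). The Ezh2 to Ezh1 ratio of FPKMs was 7.7 ± 0.06 (SD, n = 2) in −F, 8.24 ± 0.7 in F, 12.0 ± 0.028 in F2i and 9.64 ± 0.2 in NB2i. The condition with the lowest Ezh1 was also the one with the highest fibroblast marker sum, and the part of feeder RNA in this result was not tested.

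Eed, which binds the methylated histone tail (chr7:89954654-89980983, minus strand), lay between 76.74 and 88.96 FPKM in the 8 samples, with condition means in the order NB2i, F2i, F and −F. Its difference between NB2i and F2i did not pass the test (log2 0.03, SE 0.04, edgeR adjusted p = 0.47), and its difference between NB2i and −F did (log2 0.27, SE 0.041, edgeR adjusted p = 5.3e-06). Suz12, the scaffold of PRC2 (chr11:79993106-80034123, plus strand), was at 73.91 and 71.66 FPKM in −F, 72.57 and 76.47 in F, 95.19 and 91.12 in F2i, and 86.24 and 90.30 in NB2i. All 4 samples with 2i lay above all 4 without it. The rise was 0.36 on the log2 scale in F2i against F (SE 0.043, edgeR adjusted p = 3.9e-07) and 0.34 in NB2i against −F (SE 0.043, edgeR adjusted p = 3.4e-07), while F and −F did not differ past the test (log2 0.06, edgeR adjusted p = 0.32).

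Jarid2 and Mtf2 mark alternative forms of PRC2. Jarid2, a DNA-binding accessory subunit of the Jumonji family (chr13:44729474-44921643, plus strand), was at 85.31 and 88.83 FPKM in −F, 94.64 and 101.14 in F, 69.05 and 64.84 in F2i, and 53.37 and 55.11 in NB2i. Mtf2, the Polycomb-like subunit that predominates in ESCs (chr5:108065674-108109004, plus strand), was at 59.42 and 58.09 FPKM in −F, 65.01 and 68.89 in F, 94.79 and 93.57 in F2i, and 83.47 and 90.56 in NB2i. Every sample with 2i was below every sample without it for Jarid2 and above every one for Mtf2.

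In F2i against F, Jarid2 fell by 0.51 on the log2 scale (SE 0.046, edgeR adjusted p = 6.1e-09) and Mtf2 rose by 0.52 (SE 0.045, edgeR adjusted p = 2e-09). In NB2i against −F, Jarid2 fell by 0.62 (SE 0.047, edgeR adjusted p = 1e-10) and Mtf2 rose by 0.62 (SE 0.045, edgeR adjusted p = 4.4e-11). The Jarid2 to Mtf2 ratio of FPKMs was accordingly 1.48 ± 0.066 (SD, n = 2) in −F and 1.46 ± 0.0087 in F, against 0.711 ± 0.025 in F2i and 0.624 ± 0.022 in NB2i. This ratio covers those 2 transcripts only. Aebp2, which joins Jarid2 in PRC2, rose by 0.39 on the log2 scale in F2i against F (SE 0.045, edgeR adjusted p = 1.6e-07). It fell by 0.16 in NB2i against −F (SE 0.047, edgeR adjusted p = 0.0049). Of Jarid2 and Mtf2, Mtf2 had the higher FPKM with 2i and the lower without it. With feeders and serum alone, both genes were slightly higher in F than in −F, by 0.20 for Jarid2 (SE 0.046, edgeR adjusted p = 0.0015) and 0.21 for Mtf2 (SE 0.045, edgeR adjusted p = 0.00075), and the Jarid2 call was lost without F replicate 2 (log2 0.145, adjusted p = 0.051).

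Phf19, the third Polycomb-like protein, which binds a methylated mark of active genes through its Tudor domain (chr2:34893757-34914026, minus strand), showed the largest fall of the 10. It was at 7.48 and 7.15 FPKM in −F, 5.17 and 4.95 in F, 1.49 and 1.38 in F2i, and 1.32 and 1.18 in NB2i, which were 577 and 551, 395 and 384, 113 and 106, and 103 and 91 expected counts. Levels separated into −F, then F, then the 4 samples with 2i. Phf19 was lower in F2i than in F (log2 −1.78, SE 0.099, edgeR adjusted p = 1.5e-12; 3.43-fold), lower in NB2i than in −F (log2 −2.48, SE 0.096, edgeR adjusted p = 7.6e-16; 5.59-fold) and lower in F than in −F (log2 −0.51, SE 0.074, edgeR adjusted p = 1.1e-05). F2i and NB2i were not separated by the test (log2 −0.19, SE 0.13, edgeR adjusted p = 0.22).

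The upstream sequences of Phf19 and Bmi1 are shown because these genes carried the largest changes. The 250 bases before the Phf19 start in RefSeq (GRCm38.p6, chr2:34913977-34914226, minus strand) read as follows, with the letters of the E2F motif TTCCCGC, found on the opposite strand and beginning 208 bases before the start, in capitals.
Phf19 promoter: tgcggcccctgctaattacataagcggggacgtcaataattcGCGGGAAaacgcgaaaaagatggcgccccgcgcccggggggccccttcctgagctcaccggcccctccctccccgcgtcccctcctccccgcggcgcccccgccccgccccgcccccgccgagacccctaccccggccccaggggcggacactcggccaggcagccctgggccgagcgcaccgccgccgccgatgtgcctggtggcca

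The 250 bases before the Bmi1 start (chr2:18676768-18677017, plus strand) hold the E-box CACGTG, in capitals, 215 bases before the start.
Bmi1 promoter: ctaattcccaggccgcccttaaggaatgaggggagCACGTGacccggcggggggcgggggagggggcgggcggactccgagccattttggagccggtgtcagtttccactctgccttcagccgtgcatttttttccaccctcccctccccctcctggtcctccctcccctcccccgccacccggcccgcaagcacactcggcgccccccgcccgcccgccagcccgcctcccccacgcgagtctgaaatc

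Both windows were rich in CpG. The Phf19 window held 31 CpG and 75.2% G and C and the Bmi1 window 21 CpG and 70.4%, beside medians of 6 CpG and 52.4% over the 32851 windows of the RefSeq table, and the windows of the 10 genes held between 12 and 37 CpG. On either strand, TTCCCGC was also found upstream of Suz12 and was present in 3.82% of all windows, and CACGTG in 6.02%. The TCF/LEF letters CTTTGAT, in 3.21% of all windows, and the ETS letters CCGGAAG, in 6.91%, were found in no window of the 10. A match of letters is a description and not a binding site.

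Rnf2, the main E3 ubiquitin ligase of PRC1 (chr1:151458004-151500955, minus strand), lay between 36.39 and 41.87 FPKM in the 8 samples. The −F samples lay below both F samples and overlapped F2i and NB2i. Between F2i and F the log2 difference was 0.00 (SE 0.048, edgeR adjusted p = 1.0). Its calls against −F were small, at 0.13 in F (edgeR adjusted p = 0.035), 0.12 in NB2i (edgeR adjusted p = 0.036) and 0.13 in F2i (edgeR adjusted p = 0.021). They were lost in 11, 13 and 9 of 15 alternatives, the one in F2i among them without −F replicate 2 or F2i replicate 1 (adjusted p = 0.13 and 0.17).

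Cbx7, the chromobox reader of canonical PRC1 in ESCs (chr15:79915807-79971119, minus strand), was at 76.82 and 76.31 FPKM in −F, 65.58 and 60.83 in F, 46.67 and 49.36 in F2i, and 55.89 and 56.69 in NB2i. The conditions did not overlap, and each step in the order −F, F, NB2i, F2i passed the test, the one between F and NB2i by the least (log2 −0.12, SE 0.045, edgeR adjusted p = 0.02). That step was lost without F replicate 1, NB2i replicate 1 or NB2i replicate 2 (adjusted p = 0.26, 0.13 and 0.097). Cbx7 was lower in F2i than in F by 0.36 on the log2 scale (SE 0.046, edgeR adjusted p = 9.1e-07) and lower in NB2i than in −F by 0.38 (SE 0.045, edgeR adjusted p = 1.5e-07). The fibroblast markers summed to at most 13.8 FPKM in −F and 2.32 in NB2i and to more in F and F2i, and their part in these differences was not tested.

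Bmi1 (Pcgf4), a PRC1 subunit best known from adult stem cells and repression of Cdkn2a (chr2:18677018-18686629, plus strand), showed the largest rise. It was at 1.93 and 1.81 FPKM in −F, 1.92 and 2.23 in F, 5.41 and 5.98 in F2i, and 7.03 and 6.96 in NB2i. The 4 samples with 2i lay above the 4 without it, and −F and F overlapped. Bmi1 rose 2.81-fold in F2i against F (log2 1.49, SE 0.096, edgeR adjusted p = 1.8e-11) and 3.91-fold in NB2i against −F (log2 1.97, SE 0.095, edgeR adjusted p = 3.7e-14), whereas F and −F did not differ past the test (log2 0.17, SE 0.12, edgeR adjusted p = 0.26). NB2i also exceeded F2i (log2 0.30, SE 0.078, edgeR adjusted p = 0.0019; DESeq2 adjusted p = 0.059). The fibroblast markers summed to at most 2.32 FPKM in NB2i and at least 674 in F2i, and their part in these differences was not tested.

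**Figure D2:**
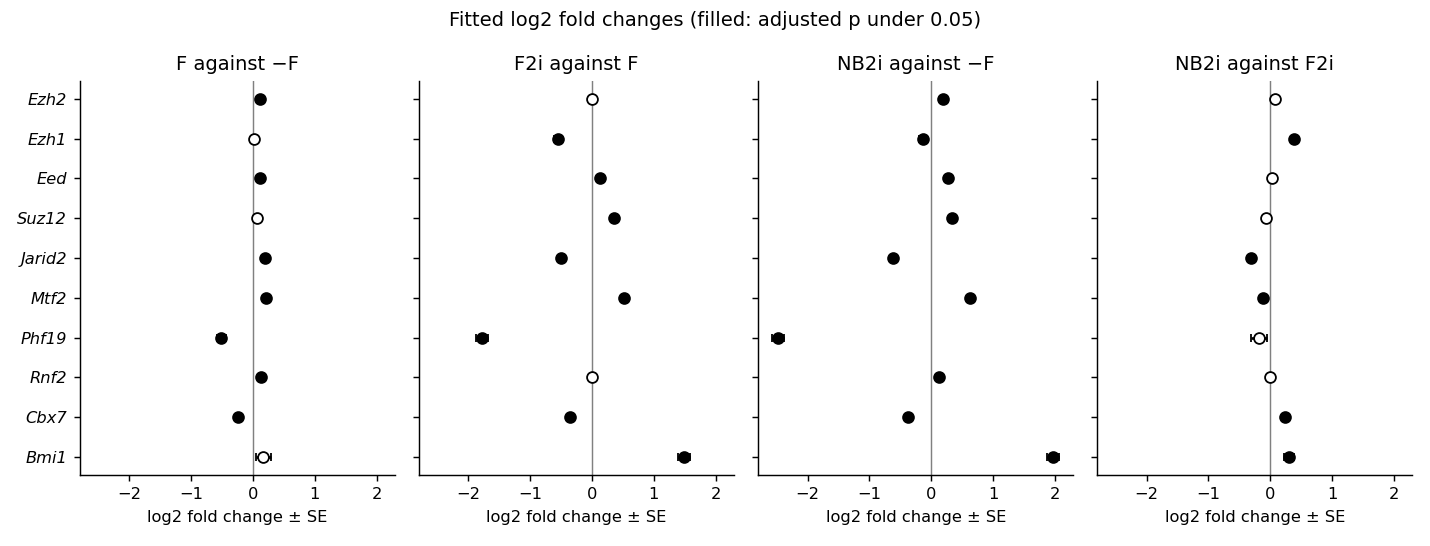
Log2 fold change ± SE (horizontal axis) of the 10 genes in 4 comparisons; filled points passed the test at an adjusted p under 0.05 and open points did not. In F2i against F and in NB2i against −F, Phf19 lies farthest to the left and Bmi1 farthest to the right, and F against −F holds no change of 2-fold.

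The number of genes called was read against the share of all genes called in the same comparison. In F against −F, both in serum, 5 of the 10 were higher and 2 lower, where 40.2% of the 15287 genes tested passed (21.7% higher and 18.5% lower). None of the 10 reached 2-fold (7.24% of all genes). Fibroblast marker RNA was higher in F than in −F, and its part in the differences of the 10 genes was not tested. Mtf2, Phf19 and Cbx7 kept their calls under every alternative run for F against −F, while the rises of Ezh2 (0.11), Eed (0.11) and Rnf2 (0.13) each lost theirs in 8 or more of 15. With DESeq2 size factors 2 of the 10 rose and 2 fell, and without F replicate 2 only Mtf2, Phf19 and Cbx7 passed.

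With 2i on feeders (F2i against F), 4 rose (Suz12, Mtf2, Eed and Bmi1) and 4 fell (Phf19, Ezh1, Jarid2 and Cbx7), where 54.8% of all genes passed (27.3% higher and 27.4% lower), and the median absolute log2 difference was 0.43 over the 10 and 0.28 over all genes tested. Bmi1 rose and Phf19 fell by at least 2-fold, beside 13.4% of all genes. The Eed rise (log2 0.12, edgeR adjusted p = 0.019) lost its call without F replicate 1, F replicate 2 or F2i replicate 1, with adjusted p-values of 0.062, 0.076 and 0.096.

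In NB2i against −F all 10 passed, 6 higher and 4 lower, beside 72.4% of all genes (36.9% higher and 35.4% lower). In F2i against −F all 10 passed with the same split, beside 67.8% (34.5% higher and 33.3% lower). The Ezh2 call there (log2 0.12, edgeR adjusted p = 0.022) was lost in 10 of 15 alternatives, with adjusted p-values of 0.081, 0.064 and 0.086 without −F replicate 1, F2i replicate 1 or F2i replicate 2. In NB2i against F, 4 rose and 4 fell, beside 73.5% (36.3% higher and 37.1% lower). Only Bmi1 and Phf19 reached 2-fold in each of these, where 27.2%, 21.5% and 27.6% of all genes did. The smallest of the NB2i against −F calls, Ezh1 (log2 −0.14, edgeR adjusted p = 0.041) and Rnf2 (log2 0.12), were lost without −F replicate 2, NB2i replicate 1 or NB2i replicate 2, with adjusted p-values of 0.16, 0.15 and 0.15 for Ezh1 and 0.2, 0.066 and 0.11 for Rnf2. Ezh1 also missed the threshold with the replicate number as a block (adjusted p = 0.052).

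Between both 2i media (NB2i against F2i) 5 of the 10 passed, Ezh1, Cbx7 and Bmi1 higher and Jarid2 and Mtf2 lower, beside 64.1% of all genes (33.3% higher and 30.8% lower), and none by 2-fold (19.3% of all genes). The median absolute log2 difference was 0.15 over the 10 and 0.36 over all genes tested. The Mtf2 difference was small (log2 −0.11, SE 0.044, edgeR adjusted p = 0.034) and was lost without F2i replicate 1, F2i replicate 2 or NB2i replicate 1 (adjusted p = 0.12, 0.083 and 0.38).

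F2i against F and NB2i against −F share no sample, so their difference could be tested for each gene. It passed for 5 of the 10, 4 positive and 1 negative, beside 48.9% of all genes (26.1% and 22.8%), and none differed by 2-fold (16.5% of all genes). Phf19 fell further in NB2i against −F (log2 difference −0.70, SE 0.15, edgeR adjusted p = 0.00054) and Bmi1 rose further (log2 difference 0.48, SE 0.14, edgeR adjusted p = 0.0082). Ezh1 fell less (log2 difference 0.41, SE 0.084, edgeR adjusted p = 0.00036), and small differences were found for Ezh2 (0.19, edgeR adjusted p = 0.015) and Eed (0.15, edgeR adjusted p = 0.037). Without F replicate 2 only Ezh1 and Phf19 passed, with Bmi1 at 0.357 and an adjusted p of 0.09, and without F2i replicate 1 or NB2i replicate 2 Ezh2 and Eed did not pass, which left 3. Eed also missed the threshold with the replicate number as a block (adjusted p = 0.053). For Jarid2, Mtf2, Suz12 and Cbx7 the log2 differences were −0.11 (SE 0.066), 0.10 (SE 0.063), −0.01 (SE 0.061) and −0.02 (SE 0.064), none past the test.

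**Figure D3:**
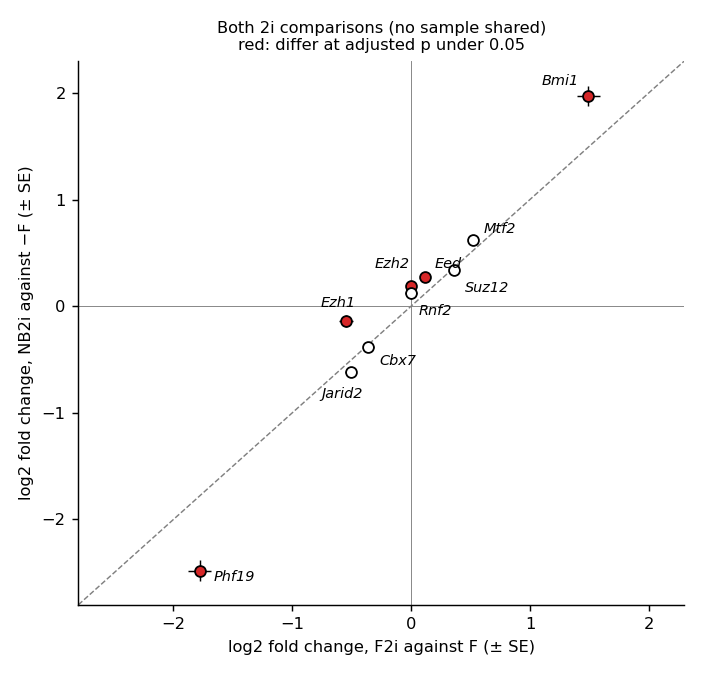
Log2 fold change of each gene in F2i against F (horizontal axis) and in NB2i against −F (vertical axis), each with its SE; the dashed line marks equal change, and red points are genes whose 2 changes differed at an adjusted p under 0.05. Mtf2, Suz12, Cbx7 and Jarid2 lie close to the line, and Phf19 (−1.78 and −2.48) and Bmi1 (1.49 and 1.97) lie farther from 0 on the vertical axis.

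Several of the 10 have paralogs that fill the same place in the complex, and their shares of the summed FPKM were compared. These shares divide counts by transcript length and describe transcripts, not protein. Among the Polycomb-like genes, Phf19 took 10.4% ± 0.12 (SD, n = 2) in −F, 6.68% ± 0.36 in F, 1.44% ± 0.066 in F2i and 1.34% ± 0.17 in NB2i, while Mtf2 took 83.3%, 88.3%, 94.6% and 92.8%. Their summed FPKM with Phf1 was 70.5 ± 1.4 in −F, 75.8 ± 1.7 in F, 99.6 ± 0.87 in F2i and 93.8 ± 4.7 in NB2i, so the sum was higher with 2i although Phf19 was lower.

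Bmi1 took 5.1% ± 0.13 of the sum of Bmi1 and Pcgf2, its closest paralog, in −F, 5.15% ± 0.62 in F, 11.4% ± 0.45 in F2i and 16.2% ± 0.14 in NB2i. Pcgf2 thus remained the more abundant transcript in every condition, at 34.9, 38.3, 44.5 and 36.1 FPKM. Rnf2 took between 86.3% and 87.3% of the sum with Ring1 in the 4 conditions, and Ezh1 took 11.5% ± 0.079 of the sum with Ezh2 in −F, 10.9% ± 0.82 in F, 7.68% ± 0.016 in F2i and 9.4% ± 0.17 in NB2i.

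Among 4 chromobox genes compared (Cbx7, Cbx6, Cbx2 and Cbx8), Cbx7 took 73.8% ± 0.63 (SD, n = 2) in −F, 73.3% ± 0.82 in F, 67.0% ± 0.53 in F2i and 65.0% ± 0.8 in NB2i. Cbx8 took 0.453%, 0.999%, 3.12% and 3.18% in the same order. Its level was 0.47, 0.86, 2.235 and 2.75 FPKM, and it rose by 2.60 on the log2 scale in NB2i against −F (SE 0.24, edgeR adjusted p = 3.4e-09). Cbx7 was the most abundant of the 4 in every condition, and Cbx6 and Cbx2 held at most 16.5% and 15.3%.

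**Figure D4:**
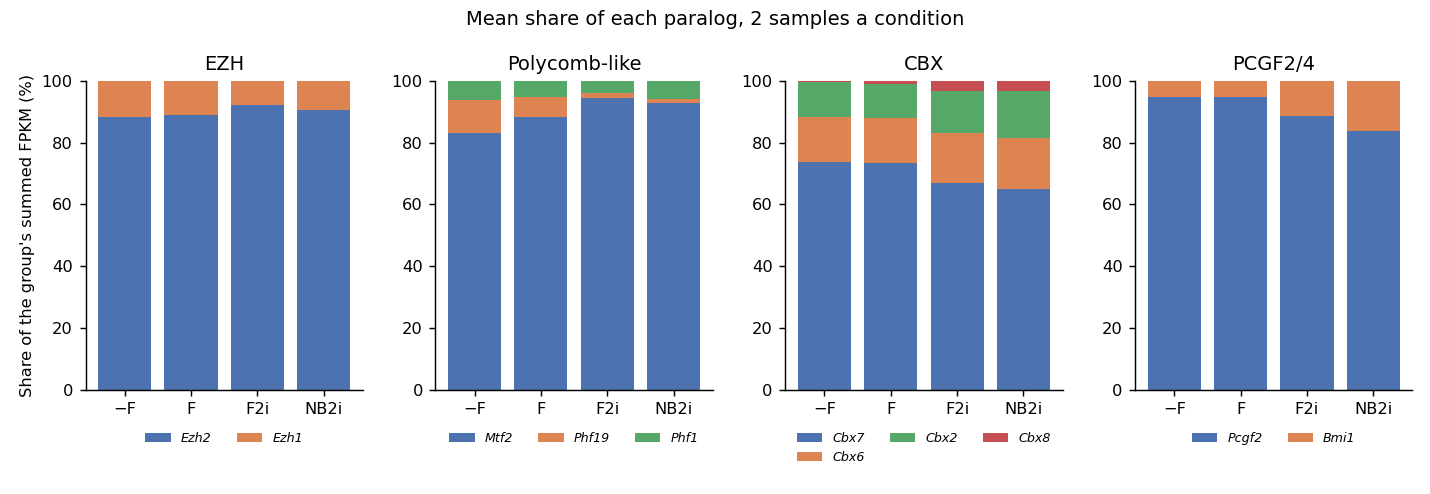
Mean share (vertical axis, percent of the summed FPKM of the paralogs, 2 samples a condition) of each gene in 4 paralog groups by culture condition. Phf19 narrows from 10.4% in −F to 1.34% in NB2i, Bmi1 widens from 5.1% to 16.2%, and Cbx7 narrows from 73.8% to 65.0%.

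Further Polycomb genes were counted in lists, without a test of the lists, beside 54.8% of all genes called in F2i against F (27.3% higher and 27.4% lower) and 72.4% in NB2i against −F (36.9% higher and 35.4% lower). Of 6 other PRC2 genes, 3 rose and 1 fell in F2i against F and 2 rose and 2 fell in NB2i against −F. The total of 4 called in each was close to the 54.8% and 72.4% of all genes called either way. Epop (E130012A19Rik in the files), which links PRC2 to elongin, was at 64.8 FPKM in −F, 82.4 in F, 106 in F2i and 72.7 in NB2i, and Aebp2, the DNA-binding partner of Jarid2 in PRC2, at 20.2, 24.9, 32.5 and 17.2. Both were highest in F2i and lower in NB2i than in F2i, by 0.54 for Epop (SE 0.043, edgeR adjusted p = 4.7e-10) and 0.90 for Aebp2 (SE 0.046, edgeR adjusted p = 2.5e-13) on the log2 scale. Rbbp7, a histone-binding subunit shared with other complexes, fell from F to F2i (log2 −0.34, SE 0.041, edgeR adjusted p = 3.2e-07).

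Of 10 other canonical PRC1 genes, 3 rose and 3 fell in F2i against F, and 4 rose and 3 fell in NB2i against −F, again close to the 54.8% and 72.4% of all genes. Phc1, a polyhomeotic protein through which canonical PRC1 self-associates, was the most abundant of them, at 223.6 ± 1.5 FPKM (SD, n = 2) in −F, 222.1 ± 2.3 in F, 109.5 ± 1.1 in F2i and 58.3 ± 1.1 in NB2i. It fell by 0.99 on the log2 scale in F2i against F (SE 0.04, edgeR adjusted p = 6.9e-15), by 1.88 in NB2i against −F (SE 0.041, edgeR adjusted p = 6e-20) and by 0.90 in NB2i against F2i (SE 0.041, edgeR adjusted p = 3.3e-14).

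Of 13 variant PRC1 genes, 5 rose and 4 fell in F2i against F, and 8 rose and 4 fell in NB2i against −F, beside the same 54.8% and 72.4%. Pcgf5, which forms a variant PRC1 without a chromobox protein, fell in both, by 0.89 (SE 0.099, edgeR adjusted p = 1.1e-07) and 1.5 (SE 0.1, edgeR adjusted p = 1.8e-11) on the log2 scale, and Bcorl1, a corepressor of the Pcgf1 complex, rose in both, by 1.42 (SE 0.089, edgeR adjusted p = 1.1e-11) and 1.21 (SE 0.1, edgeR adjusted p = 4.8e-10). Of 11 genes listed as opposing Polycomb, 6 rose and 2 fell in F2i against F, and 7 rose and 3 fell in NB2i against −F. In the same comparisons 27.3% and 36.9% of all genes rose and 27.4% and 35.4% fell. Kdm6b, which removes the PRC2 mark, was at 11.4, 15.7, 20.5 and 22.7 FPKM in −F, F, F2i and NB2i and rose by 1.05 in NB2i against −F (SE 0.047, edgeR adjusted p = 1e-14).

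Of 36 developmental genes known as Polycomb targets in ESCs, 27 had enough counts to be tested. In F2i against F 7 rose and 8 fell, and in NB2i against −F 8 rose and 9 fell, with median log2 differences of −0.12 and 0.20 beside medians near 0 over all genes. The median absolute log2 differences were 0.79 and 1.02, beside 0.28 and 0.49 over all genes. Many of these targets lay below 1 FPKM. The shares called over all genes were 54.8% and 72.4%. Hand1, a mesodermal transcription factor, was at 5.62 ± 0.64 FPKM in −F, 3.13 ± 0.16 in F, 0.165 ± 0.092 in F2i and 0.055 ± 0.035 in NB2i. It fell by 4.14 on the log2 scale between F and F2i (SE 0.28, edgeR adjusted p = 3.4e-11). Gsc, a homeobox gene of the organizer, rose between the same conditions from 0.67 to 3.05 FPKM (log2 2.21, SE 0.26, edgeR adjusted p = 2.9e-07). Cdkn2a, which encodes cell cycle inhibitors, was at 8.01 ± 0.28, 7.18 ± 0.49 and 10.4 ± 0.28 FPKM in −F, F and F2i and at 35.5 ± 1.1 in NB2i, a rise of 1.77 over F2i (SE 0.081, edgeR adjusted p = 3.7e-14). The fibroblast marker sum was highest in F2i and lowest in NB2i, and the part of feeder RNA in these lists was not tested.

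Exons of 6 of the 10 genes (Ezh2, Eed, Suz12, Mtf2, Cbx7 and Rnf2) are overlapped by a gene on the other strand in GENCODE M21, over between 1.54% (Cbx7) and 6.93% (Mtf2) of their exon bases, and the use of strand in counting is not given in the sources used here. Reads in those stretches cannot be told apart. Ezh1, Jarid2, Phf19 and Bmi1 have no such overlap.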

How the data were processed

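Poly-A RNA of 8 samples (4 culture conditions, 2 samples each) was sequenced as single-end reads of 50 bases. Per the labels and the study's methods, the authors used Bowtie2 for alignment (build mm10) and RSEM for gene quantification. The deposited files give for each gene an expected count (estimated, 29.8% not whole), the FPKM the authors computed from it, and a transcript length in bases (unit: other) that the authors' RSEM run weighted by isoform. Genes absent from a deposited file were taken as 0.

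After rounding, the estimates entered 1 fit of all 8 samples in edgeR 4.0.16 (R 4.3.3; quasi-likelihood, TMM factors), which kept the 15287 genes that reached 10 counts in 2 or more samples. P-values were adjusted by Benjamini-Hochberg over all genes of a comparison, and an adjusted p under 0.05 was past the test. Residual degrees of freedom were 4. For a single gene, 2 samples against 2 cannot give an exact permutation p (two-sided) below 0.3333, so calls rest on the spread shared across genes. P-values set a difference between conditions against the spread between duplicate samples of 1 line. DESeq2 1.42.0, other size factors and filters, the 2 groups alone, left-out samples and limma 3.58.1 on log2(FPKM + 1) were alternatives.

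The 10 genes and all lists, motifs and thresholds were chosen with earlier results of these data known. All 10 are named. From other lists, at most the 3 largest called changes per comparison are named if the higher condition averaged 1 FPKM or more, together with the paralogs compared. 1 gene is not reported here. Each list gives counts and not a test. Loci are from GENCODE M21 and promoter sequences from RefSeq GRCm38.p6. Scripts were tested on simulated counts.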

Additional observations from a re-analysis of the deposited data

Results flagged for a closer look

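The change with 2i in N2B27 (NB2i against −F) and the change with 2i on feeders in serum (F2i against F) share no sample. In the edgeR fit 5 of the 10 genes differed between them, close to the 48.9% of all genes tested that did. The log2 difference was 0.41 for Ezh1, 0.19 for Ezh2, 0.15 for Eed, −0.70 for Phf19 and 0.48 for Bmi1. Those of Ezh1 and Phf19 passed the test under every alternative run. Of 18 alternatives, Eed lost its call in 13, Ezh2 in 8 and Bmi1 in 2 (DESeq2, adjusted p = 0.088, and without F replicate 2, 0.357 with an adjusted p of 0.09). NB2i lacks serum and feeders and uses another medium and coating, so these cannot be told apart from 2i, and the part of feeder RNA in the difference was not tested.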

How the results depend on the processing

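Of 70 log2 differences of the 10 genes, 53 passed the test, and 37 of these kept direction and call in all alternatives. The comparisons share samples, so the 70 values are not independent. Between 40.2% (F against −F) and 73.5% (NB2i against F) of all genes tested passed in the same comparisons. Shares of all genes were counted in the main fit only. With DESeq2, DESeq2 size factors, total counts alone, only the 2 groups, or an adjusted p under 0.01, 4 genes in place of 7 passed in F against −F, and leaving out 1 sample gave 3 to 6. For the difference between both 2i changes, DESeq2 gave 2 and an adjusted p under 0.01 gave 3 in place of 5, and leaving out 1 sample gave 2 to 5. The counts of the other comparisons stayed within 1.5 times, at 7 to 8 (F2i against F), 4 to 6 (NB2i against F2i), 8 to 10 (NB2i against −F), 6 to 9 (NB2i against F) and 8 to 10 (F2i against −F).

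Of 8 differences that changed sign, none passed the test in either direction. Ezh1 in F against −F was −0.002 with total counts alone and −0.003 in the limma fits, and −0.017 to 0.054 with 1 sample left out. In F2i against F, Ezh2 was −0.037 with total counts alone, −0.002 without a filter, −0.036 and −0.037 in the limma fits and −0.048 to 0.06 with 1 sample left out, and Rnf2 was −0.038, −0.003, −0.036 and −0.037, and −0.056 to 0.067. Eed in NB2i against F2i was −0.002 with at least 10 counts in every sample. With 1 sample left out, Rnf2 ran from −0.053 to 0.019 in NB2i against F2i and from −0.072 to 0.052 in NB2i against F, and in the difference between both 2i changes Suz12 ran from −0.059 to 0.024 and Cbx7 from −0.072 to 0.028. The cause was not tested.

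Replicate numbers did not pair the samples. Deviations of same-numbered samples correlated at −0.0268 on average (−0.0781 to 0.0611 over 6 pairs of conditions and 11953 genes). With the replicate number as a block, 7, 8, 5, 9, 8 and 10 of the 10 genes passed in F against −F, F2i against F, NB2i against F2i, NB2i against −F, NB2i against F and F2i against −F, and 4 in the difference between both 2i changes.

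From expected counts not divided by length, the Ezh1 share was 17.1%, 16.3%, 11.7% and 14.2% in −F, F, F2i and NB2i. With 2 samples a condition, the smallest difference called among the 10 genes was 0.11 on the log2 scale (Ezh2 and Eed in F against −F and, lower, Mtf2 in NB2i against F2i), and Phf19 rested on 91 counts at the lowest.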
